A study of Populus trichocarpa with 45 samples.

Results

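Of the 34700 genes annotated in the Stettler genome of Populus trichocarpa, the black cottonwood, 2167 (6.24%, Wilson 95% interval 6.0% to 6.50%) were listed at 0 in every leaf library. These genes, called silent here, were chosen by a deposited TPM of 0 in each of the 45 libraries. TPM, the expression unit of the files, is the abundance of a transcript per 1000000 transcripts of the library. Their level of 0 is therefore the rule by which they were chosen and no result. The deposited FPKM, a measure of fragments scaled by transcript length and library total, was also 0 for each of these genes. The other 32533 genes were above 0 in at least 1 library.

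The libraries came from leaves of 15 branches, with 3 libraries per branch and 5 branches each in trees 13, 14 and 4. In the study, trees 13 and 14 are both stems of one old individual and tree 4 is a separate tree, while the growth protocol in the labels names a single wild tree in Oregon. The labels name no treatment, and every library was a polyA-selected, strand-specific mRNA library. The 3 libraries of a branch are called biological replicates in one place of the study and technical replicates in another, so spread between them may be technical.

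A leaf uses only part of a plant's genes. Genes for flowers, roots, wood or pollen, and genes induced by pathogens or injury, can be without transcript in a resting leaf, and an annotation also holds gene models that may make no polyA transcript. Plant genomes carry many gene families as tandem arrays, in which copies of 1 gene lie side by side, often on the same strand, and whole arrays can lie in chromatin without transcription. The files pair the identifiers with no gene names, so position, span, strand and neighbours are what the silent genes can be described by. Span is the distance from the first to the last annotated base, introns included.

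Depth sets how firmly a value of 0 can be read. Library depth, recovered from the steps in the FPKM values, was lowest at 11870000 and highest at 35940000 fragments (median 23920000), and summed to 1111000000. Over this sum a count of 0 allows up to 0.00270 fragments in 1000000, which is 0.00738 FPKM in a transcript of 366 bases. At 1367 bases, the median span of the silent genes, it allows 0.00198 FPKM. These limits cover counting error only. Silence here means that no fragment was assigned in a leaf at this depth, and not that a gene is absent or never transcribed.

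Silence was not spread evenly over the chromosomes. Chromosome 19, which carries the sex-determining region of poplars, held the highest share, with 132 silent of 1172 genes (11.3%, Wilson 95% interval 9.58% to 13.2%). Chromosome 4 followed with 173 of 2038 genes (8.49%, 7.36% to 9.78%), and chromosome 11 with 124 of 1491 (8.32%, 7.02% to 9.83%). The lowest shares were on chromosome 14, with 70 of 1653 genes (4.23%, 3.37% to 5.32%), and chromosome 2, with 109 of 2368 (4.60%, 3.83% to 5.52%). The intervals of chromosomes 19 and 14 do not overlap, while those of chromosomes 4 and 11 nearly coincide. The intervals treat genes as independent, which neighbours in a run are not.

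**Figure D1:**
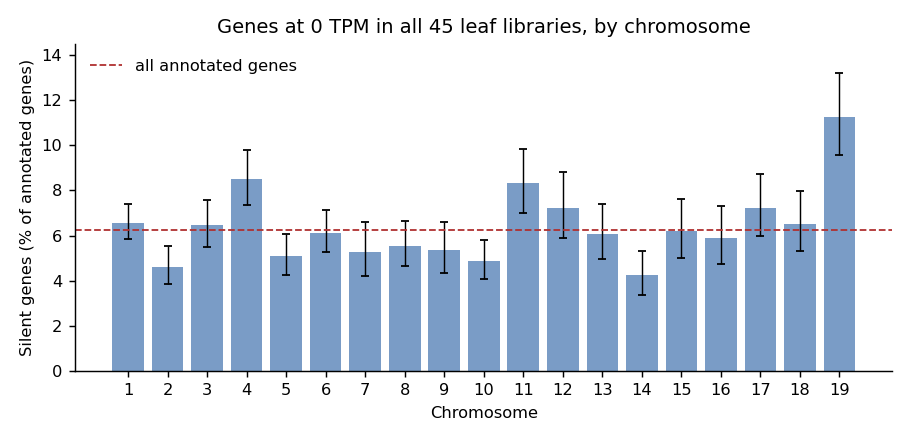
Share of annotated genes at 0 TPM in all 45 leaf libraries (y axis, percent) on each of the 19 chromosomes (x axis). Error bars are Wilson 95% intervals and the dashed line is the share over all genes, 6.24%. Chromosome 19 reaches 11.3% and chromosome 14 is lowest at 4.23%.

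Chromosome 1, which holds the most genes, had the most silent genes in number, 268 of 4075 (6.58%), close to the share over all genes. The order was similar per length, with 8.28 silent genes per megabase on chromosome 19 and 3.98 on chromosome 14. Chromosome 19 also had the fewest annotated genes per megabase of the 19 chromosomes, 73.5. Of the 30 genes on one unplaced scaffold 1 was silent, and of the 2 genes on the other 0 were silent. The silent genes lay on both strands, 1062 on plus and 1105 on minus, which puts 49.0% on plus against 49.9% of the genes above 0.

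Within chromosomes, silent genes were found nearly throughout and were dense in a few places. Among 380 windows of 1 megabase that held at least 20 genes, the median share of silent genes was 5.81%. In 13 windows there was no silent gene, and in 7 windows the share was over 20%. The highest share was from 9 to 10 megabases on chromosome 4, with 33 silent of 92 genes (35.9%). Next came 3 to 4 megabases on chromosome 19 with 22 of 74 genes (29.7%) and 10 to 11 megabases on chromosome 4 with 18 of 65 (27.7%). The first megabase of chromosome 19 held 22 of 91 (24.2%). With each chromosome divided into 10 parts of equal length, the share ran from 4.75% in part 6 to 8.45% in part 5. Without chromosome 4, part 5 held 6.91% and part 1 held 6.98%.

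The silent genes were short. Their median span was 1367 bases (95% interval of the median 1312 to 1421), with quartiles of 743 and 2445.5 bases. The genes above 0 had a median of 3041 bases (3008 to 3073), so that the ratio of the medians was 2.22. Span rose with the number of libraries in which a gene was above 0. The median was 1522.5 bases for the 1896 genes above 0 in 1 to 5 libraries and 1646.5 for the 1962 genes above 0 in 6 to 20. It was 1918 for the 3661 genes in 21 to 44 libraries and 3501 for the 25014 genes above 0 in all 45. The silent genes were thus nearest to the rarely detected genes and lay at the lower end of a graded order.

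The share of silent genes fell with span. It was 19.7% of the 1569 genes of up to 500 bases (309 silent) and 14.3% of the 3327 genes over 500 and up to 1000 bases (476 silent). It was 9.81% of the 6737 genes over 1000 and up to 2000 bases (661 silent) and 3.93% of the 15120 genes over 2000 and up to 5000 bases (594 silent). Of the 7947 genes over 5000 bases, 127 were silent (1.60%). Weakly expressed genes were also short, since the 7781 genes above 0 whose highest TPM stayed under 1 had a median span of 1938 bases. Against these genes the ratio of medians was 1.42. A long transcript gives more fragments at the same level, so detection itself depends on length. The part of this in the shares above was not tested. Span can also depend on expression through the annotation. By the study's methods, untranslated regions were added to gene models with transcript assemblies, which drew in part on Stettler RNA reads. Short single-exon models with neither a protein domain nor good expression were removed. The part of these steps in the spans was not tested either.

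**Figure D2:**
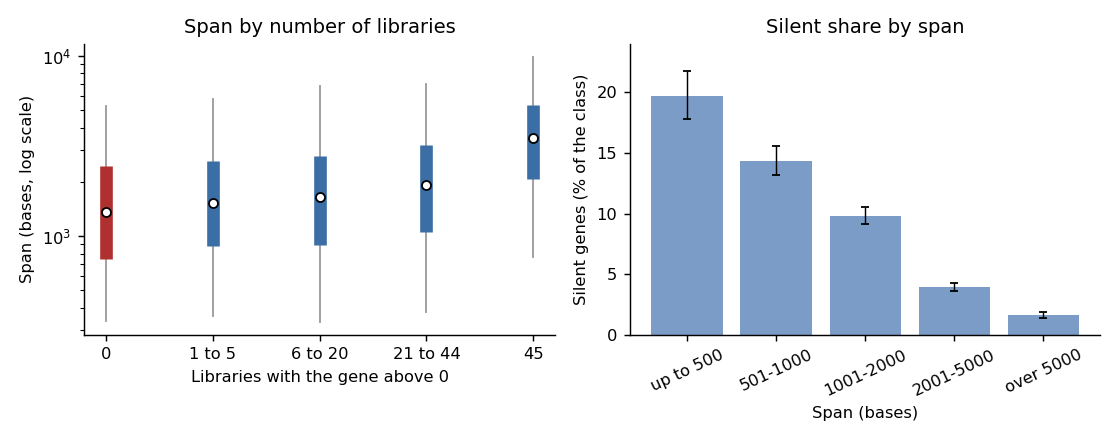
Left, span in bases (y axis, log scale) of genes grouped by the number of libraries in which they were above 0 (x axis). Circles are medians, thick bars run between the quartiles and thin lines from the 5th to the 95th percentile, and the median is 1367 bases for the silent genes (0 libraries) and 3501 for genes above 0 in all 45. Right, silent genes as a percentage of all genes in 5 classes of span, with Wilson 95% intervals, falling from 19.7% to 1.60%.

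A span that is a whole multiple of 3 bases is what a gene model of 1 coding exon without untranslated regions has. Other models have such a span by chance in about 1 of 3 cases, so the shares below do not count models of this kind. A multiple of 3 was found for 891 silent genes (41.1%, 39.1% to 43.2%), for 35.5% of the genes above 0 and for 34.7% of those above 0 in all libraries. The share was 38.5% (36.3% to 40.7%) for genes above 0 in 1 to 5 libraries and 40.6% (38.5% to 42.8%) in 6 to 20. Both intervals overlap that of the silent genes, which were thus not set apart from rarely detected genes. In 21 to 44 libraries the share was lower than in these classes. Within classes of span the excess of the silent genes over the genes above 0 was small or turned round. Up to 500 bases it was 70.9% of the silent genes against 76.6% of the genes above 0. In the class up to 1000 bases the shares were 39.7% and 40.1%, up to 2000 bases 37.2% and 33.9%, up to 5000 bases 33.0% and 32.9%, and over 5000 bases 32.3% and 33.4%.

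The 2 silent genes of largest span differed in their surroundings. PtStettler14.16G118000, on the plus strand of chromosome 16 (13926520 to 13946634), spans 20115 bases. It follows another silent gene at 669 bases and closes a run of 5 silent genes, and the next gene, PtStettler14.16G118100, was above 0 in 2 libraries with a highest TPM of 0.0575. PtStettler14.11G061700, on the plus strand of chromosome 11 (7192150 to 7211682), spans 19533 bases. It stands alone between PtStettler14.11G061600, at a mean of 1.10 TPM over the libraries, and PtStettler14.11G061800, at 3.33 TPM.

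At the other end, 6 silent genes span 84 bases, the smallest span in the annotation, where 8 genes have that span. A gene of this span is only slightly longer than 1 sequencing read of 75 bases. The silent ones are PtStettler14.02G088600, PtStettler14.08G200200, PtStettler14.11G067100, PtStettler14.12G002800, PtStettler14.17G101100 and PtStettler14.18G038400, each on another chromosome. Some of them lie beside well-expressed genes. PtStettler14.12G002800, on the minus strand of chromosome 12 from 347466 to 347549, lies 602 bases from PtStettler14.12G002700, which was at 48.5 to 114.8 TPM. PtStettler14.18G038400, on the plus strand of chromosome 18 from 4125345 to 4125428, lies 90 bases from PtStettler14.18G038300, which was at 4.77 to 15.3 TPM on the minus strand. The remaining genes of 84 bases were above 0 in 11 and 43 libraries.

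One span stood out among the short silent genes. There are 41 annotated genes of exactly 366 bases, of which 26 were silent. Each of these 26 lies on the minus strand of chromosome 4, where 28 of the 41 are found. The 15 genes of 366 bases that were above 0 were mostly on other chromosomes, and 7 of them were above 0 in all 45 libraries. No other span was shared by so many silent genes, since the next were 900 bases (8 silent of 20 genes) and 390 bases (7 of 12). Another 5 spans had 6 silent genes each, 84 (of 8 genes), 363 (of 9), 552 (of 10), 1182 (of 11) and 1419 (of 7). Of the 7 silent genes of 390 bases, 4 lie on chromosome 4 in the same region, PtStettler14.04G095500, PtStettler14.04G095600, PtStettler14.04G097800 and PtStettler14.04G097900.

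The 26 genes fell into 5 blocks with near-constant spacing. The first block, PtStettler14.04G096000 to PtStettler14.04G096500, holds 6 genes from 9697200 to 9709293, whose starts lie 2340 to 2364 bases apart. The next, PtStettler14.04G097000 to PtStettler14.04G097300, holds 4 genes from 9758221 to 9765735 at 2382 to 2384 bases. PtStettler14.04G098000 and PtStettler14.04G098100, from 9906565 to 9909314, lie 2384 bases apart. Further along, PtStettler14.04G101300 to PtStettler14.04G101800 holds 6 genes from 10446447 to 10459163 at 2459 to 2477 bases. The last block, PtStettler14.04G101900 to PtStettler14.04G102600, holds 8 genes from 10472765 to 10490465 at 2475 to 2477 bases. Within a block the spacing thus varied by at most 24 bases, and it was longer in the last blocks than in the first. No genome of this build was used, so whether these genes share their sequence was not examined, and neither was how reads matching several copies were assigned.

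The neighbour of a silent gene was silent more often than the neighbour of a gene above 0. Genes were ordered by start on each chromosome, and the gene after a silent gene was silent in 390 of 2164 cases (18.0%, Wilson 95% interval 16.5% to 19.7%). After a gene above 0 the next gene was silent in 5.45% of 32515 cases, and over all genes in 6.24%. The share fell with distance, to 12.6% for the second gene along, 11.6% for the third, 8.66% for the fifth and 7.66% for the tenth. Without the 3 longest runs, described below, the share for the next gene was 16.6%. Without chromosomes 4 and 19 it was 15.5%, against 5.30% after a gene above 0, so the nearness was also seen outside the chromosomes with the longest runs.

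**Figure D3:**
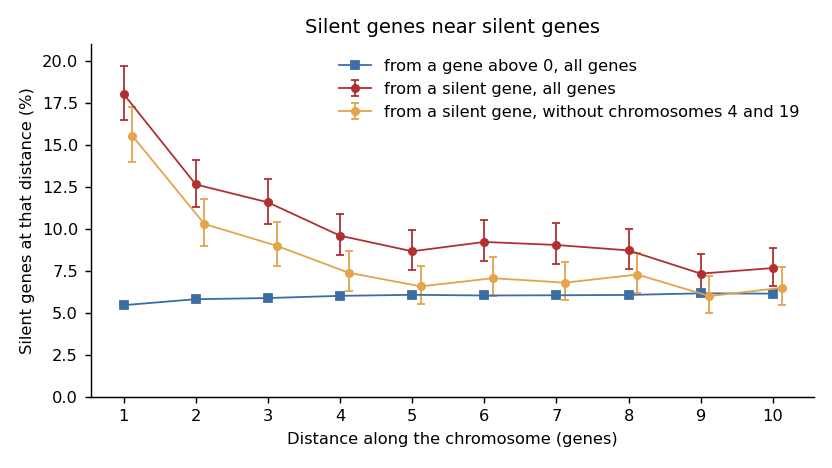
Share of genes that were silent (y axis, percent) at a distance of 1 to 10 genes along the chromosome (x axis) from a silent gene or from a gene above 0. Bars are Wilson 95% intervals. From silent genes the share falls from 18.0% at 1 gene to 7.66% at 10, and from 15.5% without chromosomes 4 and 19, while from genes above 0 it starts at 5.45% and reaches 6.14%.

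Most silent genes nevertheless stood alone. Of the 2167 genes, 1524 (70.3%) had a gene above 0 on both sides or ended a chromosome, and 643 (29.7%) lay in 253 runs of 2 or more. There were 191 runs of 2 genes and 62 of 3 or more, the latter with 261 genes (12.04%). Runs of 5 or more numbered 16 and held 109 genes (5.03%), with 10 runs of 5, 3 of 6 and 1 each of 11, 14 and 16. The chromosomes with the most genes in runs were chromosome 1 (91), chromosome 4 (72) and chromosome 19 (68). Span differed little between lone genes and runs, at medians of 1385.5 bases for lone genes, 1330 in runs of 2 or more and 1329 in runs of 3 or more.

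The longest run, PtStettler14.04G096700 to PtStettler14.04G098200, lies on chromosome 4 from 9729657 to 9946929. It covers 217.3 kilobases and 16 genes, 4 on the plus and 12 on the minus strand, with spans from 366 to 3054 bases. It includes 6 of the 366-base genes. The gene before it, PtStettler14.04G096600, was above 0 in 2 libraries, at a mean over the libraries of 0.00110 TPM. The gene after it, PtStettler14.04G098300, was above 0 in all 45 libraries at a mean of 4.56 TPM. The edge of the silence was therefore gradual on one side and sharp on the other. A wider stretch from PtStettler14.04G095500 to the end of the run, from 9645538 to 9946929, held 25 silent genes of 28 over 301.4 kilobases. The other 3 genes there were above 0 in 1 or 2 libraries and never exceeded 0.0332 TPM. This stretch was picked after its values were seen.

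The second run, PtStettler14.04G101300 to PtStettler14.04G102600, lies on chromosome 4 from 10446447 to 10490465 and consists only of 366-base genes. It holds 14 genes on the minus strand over 44.02 kilobases, the last 2 blocks above. Genes on either side were expressed in every library, PtStettler14.04G101200 at a mean of 5.07 TPM and PtStettler14.04G102700 at 1.31 TPM. The genes next to the run are distant, though, since PtStettler14.04G101200 ends 89.3 kilobases before it.

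The third run, PtStettler14.19G028900 to PtStettler14.19G029900, lies on chromosome 19 from 3731152 to 3853810. Its 11 genes lie on both strands, 5 on plus and 6 on minus, with spans from 658 to 1704 bases. Unlike in the runs on chromosome 4, no 2 of them have the same span. Its start was sharp, after PtStettler14.19G028800 at a mean of 1.84 TPM. Its end was gradual. PtStettler14.19G030000 was above 0 in 4 libraries, and 13 of the 15 genes up to 3905728 were silent. Earlier on the same chromosome, from 3373072 to 3476067, PtStettler14.19G026400 to PtStettler14.19G026800 formed a run of 5 silent genes of like span, 2886 to 3128 bases. It is a separate run, as strongly expressed genes lie between, such as PtStettler14.19G027900 at a mean of 1419 TPM.

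**Figure D4:**
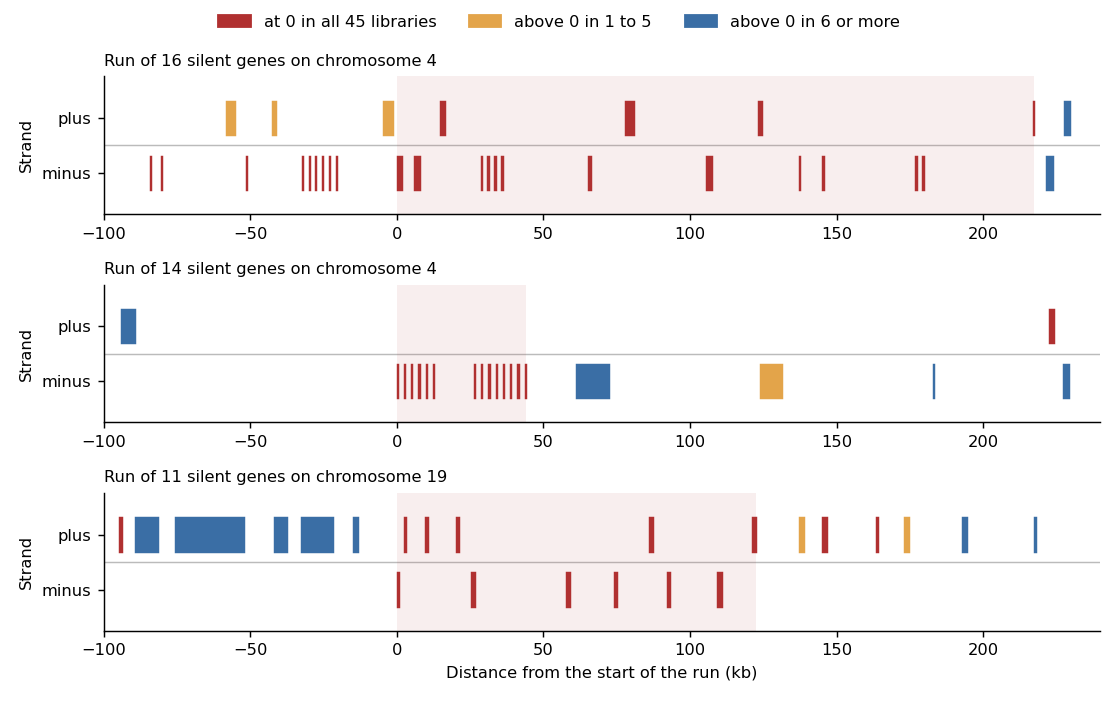
Maps of the 3 longest runs of silent neighbours (shaded), with distance from the start of the run in kilobases (x axis) and genes drawn to scale on the plus or minus strand (y axis), apart from a thin outline that keeps short genes visible. Red genes were at 0 in all 45 libraries, orange genes above 0 in 1 to 5 and blue genes above 0 in 6 or more. The run of 14 shows 2 blocks of evenly spaced 366-base genes, and the other runs hold genes of both strands.

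The other runs of 6 were PtStettler14.04G096000 to PtStettler14.04G096500, the first 366-base block, and one each on chromosomes 12 and 13. PtStettler14.12G092200 to PtStettler14.12G092700 covers 57.8 kilobases with spans from 424 to 2668 bases, and is followed by PtStettler14.12G092800 at a mean of 27.6 TPM. PtStettler14.13G062500 to PtStettler14.13G063000 covers 45.5 kilobases, with all 6 genes on the plus strand, between genes at means of 1.57 and 4.33 TPM.

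Silent neighbours tended to share a strand. Both genes were on the same strand in 288 of 390 silent pairs (73.8%, Wilson 95% interval 69.3% to 78.0%). The share was 54.6% of 3547 pairs with 1 silent gene and 53.6% of 30742 pairs above 0. Without the 3 longest runs it was 74.4% of 352 pairs. The starts of silent pairs were a median of 6284.5 bases apart (3240.5 to 14178.2 between quartiles), against 7856 bases in pairs above 0 (4604 to 13074.8). The gap from the end of a gene to the start of the next went the other way, with medians of 4456.5 bases in silent pairs and 3929 in pairs above 0, so the shorter distance between starts came with shorter genes and not with shorter gaps.

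Neighbours of exactly the same span were found in 28 silent pairs (7.18%) and in 18 pairs above 0 (0.0586%). Of the 28, 24 lay on chromosome 4, 22 of them with 366 bases and 2 with 390. Another 2 pairs of 1778 bases lay on chromosome 19, with 1 pair of 1044 bases on chromosome 13 and 1 of 351 bases on chromosome 17. Without the 3 longest runs 10 such pairs were left.

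Silent genes overlapped other annotated genes less often than genes above 0 did. An overlap was found for 109 silent genes (5.03%, 4.19% to 6.03%) and for 8.62% of the genes above 0 (8.32% to 8.93%). The difference was larger on the opposite strand, at 2.63% against 5.30%, than on the same strand, at 2.49% against 3.45%. Genes above 0 in 1 to 5 libraries had any overlap in 6.80% (5.76% to 8.03%), an interval that overlaps that of the silent genes. Their share was 4.43% on the opposite strand and 2.43% on the same strand, the latter close to that of the silent genes. Any overlap was found for 9.73% of genes above 0 in 6 to 20 libraries and 10.5% in 21 to 44. Span also differed between these groups, and its part here was not tested. In the other direction, 47 silent genes (2.17%, 1.63% to 2.87%) lay wholly inside another gene, against 1.32% of the genes above 0 and 0.907% of those above 0 in every library. The share was 2.53% for genes above 0 in 1 to 5 libraries, 3.06% in 6 to 20 and 2.54% in 21 to 44. Lying inside another gene was thus not particular to the silent genes. For these 47 genes, reads of the gene around them and their own cannot be told apart where strand and exons coincide.

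The genes beside silent genes were themselves less strongly expressed. The 3411 genes above 0 that had a silent neighbour had a median of 2.59 TPM (95% interval of the median 2.30 to 2.92), taking each gene's mean over the libraries. The 29122 genes above 0 without one had a median of 4.36 TPM (4.23 to 4.49). With a silent gene on both sides, as for 136 genes, the median was 0.269 TPM (0.102 to 1.11). A mean of at least 1 TPM was reached by 60.3% of the genes with a silent neighbour, 42.6% of those between silent genes and 69.7% of those with none. The median span of the genes with a silent neighbour was 2995 bases, close to the 3047 of those with none.

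Silent genes had expressed neighbours on both sides less often than genes above 0. Both neighbours had a mean of at least 1 TPM for 603 silent genes (27.8%), against 44.5% of the genes above 0, and of at least 10 TPM for 142 (6.55%), against 10.6%. Ranked by the weaker of their neighbours, so that both sides had to be high, the 2 highest silent genes were PtStettler14.18G072300 and PtStettler14.16G072700.

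PtStettler14.18G072300 lies on the plus strand of chromosome 18 (10971667 to 10975164). PtStettler14.18G072200 before it was at 69.7 to 357.4 TPM (mean 195.0) and PtStettler14.18G072400 after it at 331.0 to 2542 TPM (mean 1199). Both neighbours are on the minus strand, at 11277 and 29119 bases. PtStettler14.16G072700 lies on the minus strand of chromosome 16 (6336875 to 6338347). It lies close to PtStettler14.16G072600 before it, at 227 bases and 176.6 to 434.5 TPM (mean 340.6). PtStettler14.16G072800 after it is at 4446 bases and 49.4 to 148.1 TPM (mean 110.8). Both of these neighbours are on the plus strand. Neither silent gene overlaps another gene, and both are flanked by genes of the other strand.

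The rule stops at a single library. Just outside it were 638 genes above 0 in exactly 1 library, followed by 426 in 2 libraries. The median TPM of the 638 genes in their 1 library was 0.0533 (0.0307 to 0.0948 between quartiles), and 491 of them (77.0%) were under 0.1 TPM. With span taken as transcript length, which gives the most fragments a value can stand for, 190 genes (29.8%) rested on at most 1.05 fragments and 459 (71.9%) on at most 2.1. Most genes just outside the rule thus differ from the silent genes by 1 or 2 fragments. They also lay near silent genes, with 116 of the 638 (18.2%) beside one, against 10.5% of all genes above 0.

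The lowest values in this group were below 1 fragment. PtStettler14.07G099200, on the minus strand of chromosome 7 (12891891 to 12893107), was at 0.00331 TPM in branch 14.5 replicate 3. PtStettler14.09G138500, on the plus strand of chromosome 9 (12187929 to 12190063), was at 0.00547 TPM in branch 13.5 replicate 1. By span these are at most 0.0729 and 0.183 fragments, less than 1 whole fragment.

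The highest values came from a few genes, 5 of which reached 1 TPM. PtStettler14.15G114100, on the plus strand of chromosome 15 (14081780 to 14084058), was at 12.5 TPM in branch 14.1 replicate 2 and at 0 in the other 44 libraries. PtStettler14.11G014900, on the minus strand of chromosome 11 (1560228 to 1566229), was at 2.25 TPM in branch 13.3 replicate 1 only. Both values rest on 1 of the 3 libraries of the branch.

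The number of genes at 0 throughout a set of libraries was lower in larger sets. A single library had 5321 to 7713 genes at 0 (median 6180), of which the 2167 made up 28.1% to 40.7%. Taking the 3 libraries of a branch together left 4257 to 5102 genes (median 4778). The 15 libraries of a tree left 2772 in tree 4, 3095 in tree 13 and 3244 in tree 14, and the 30 libraries of trees 13 and 14 left 2581. The count was still falling when the 15 libraries of tree 4 were added, since 414 genes at 0 throughout trees 13 and 14 were above 0 in tree 4. Only 4 of these 414 reached 1 TPM. Tree 4 is a separate tree in the study and was sequenced deepest. In this step the number of libraries, depth and tree cannot be told apart.

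Across the 15 branches, genes at 0 fell by 1370 for each rise of 1 in log2 mean depth. Pearson's r was -0.93 (permutation p = 2e-05, the smallest that 100000 resamples can give, adjusted p = 8e-05 over 4 tests) and Spearman's rho -0.90 (permutation p = 4e-05, adjusted p = 8e-05). Within the 10 branches of trees 13 and 14, r was -0.74 (permutation p = 0.0138) and rho -0.78 (permutation p = 0.0113). Without 4.1 and 4.5, the branches farthest from the median depth, r was -0.87 (permutation p = 0.00014). The shallowest library, branch 14.1 replicate 3 with 11870000 fragments, had the most genes at 0, 7713.

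**Figure D5:**
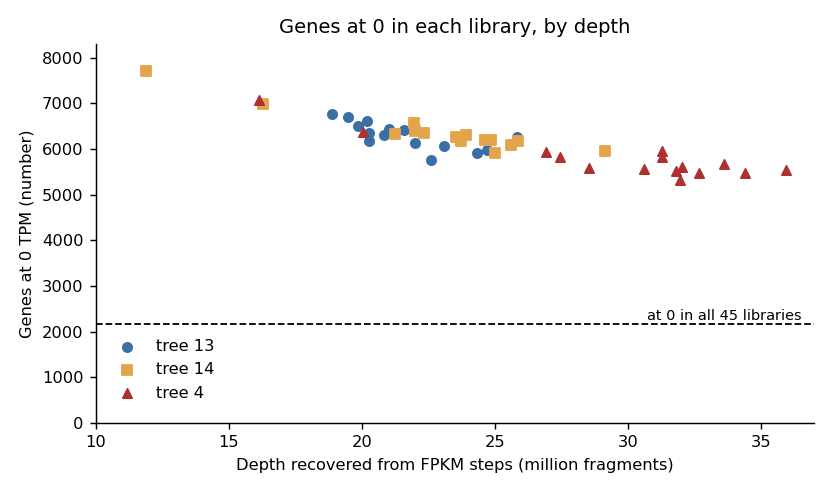
Genes at 0 TPM in each of the 45 libraries (y axis, number) against depth recovered from the FPKM steps (x axis, in units of 1000000 fragments), with trees 13, 14 and 4 as circles, squares and triangles. The libraries run from 7713 genes at 11870000 fragments down to 5321, and the dashed line marks the 2167 genes at 0 in all of them.

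Trees were compared on branch means, to ask whether silence in a leaf differed between them. Since every silent gene is at 0 in each library, any difference comes from genes outside the 2167. Tree 4 had 5781 ± 225 genes at 0 (SD, n = 5 branches), and trees 13 and 14 had 6334 ± 223 (SD, n = 10 branches), a difference of -553.2 genes (exact permutation p = 0.001998, two-sided, adjusted p = 0.00266 over 4 tests). Depth moved with this difference, with means of 29640000 fragments per library in tree 4, 21660000 in tree 13 and 22790000 in tree 14. On residuals from the line on log2 depth the difference was 15.1 genes in the other direction (exact permutation p = 0.894, two-sided). Branch depths were 26710000 to 32870000 in tree 4 and at most 22520000 in tree 13 and 25840000 in tree 14. The line was fitted over all 15 branches, so tree and depth cannot be told apart in these residuals. By the study's text 1 individual stands on either side, so these p-values speak only for branch-to-branch spread. Tree 14, with 6375 ± 246 genes at 0 (SD, n = 5 branches), and tree 13, with 6292 ± 216 (SD, n = 5 branches), differed by 83.2 genes (exact permutation p = 0.571, two-sided, where the smallest possible is 0.00794). Without branch 14.1 this difference in genes at 0 was -9.47. On residuals from the line on log2 depth, with all branches, they differed by 175.8 genes (exact permutation p = 0.0635, two-sided).

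Genes silent in a whole tree added few cases of clear expression elsewhere. Beyond the 2167, 928 genes were at 0 in all 15 libraries of tree 13, 1077 in tree 14 and 605 in tree 4. Their highest TPM in the other trees had medians of 0.0613, 0.0657 and 0.0653, and 13, 20 and 10 of them reached 1 TPM. In only 1 library outside the tree were 446, 491 and 339 of them above 0.

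A complete split by tree, at 0 throughout a tree and above 0 in every other library, was rarer still. Among the 32533 genes above 0 somewhere, 0 (0%) were at 0 throughout tree 13 and above 0 in all 30 other libraries, 0 (0%) throughout tree 14, and 2 (0.00615%) throughout tree 4. PtStettler14.12G032700, on the minus strand of chromosome 12 (3399345 to 3402374), was at 14.1 to 21.2 TPM in tree 13 (median 16.2) and at 8.56 to 21.1 in tree 14 (median 16.6). All 15 libraries of tree 4 were at 0. PtStettler14.01G281700, on the minus strand of chromosome 1 (33732962 to 33736557), was at 1.2 to 2.33 TPM in tree 13 (median 1.49) and at 1.13 to 1.99 in tree 14 (median 1.58), and again at 0 in tree 4. For both genes the values of trees 13 and 14 overlap each other, and those of tree 4 lie apart. These genes were chosen by this pattern, so it carries no test. In the study, the Stettler genome was assembled from a branch of tree 14, and so from the individual of trees 13 and 14. Whether these genes are present with the same sequence in tree 4 was not tested.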

How the data were processed

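Leaf mRNA of 45 libraries was prepared with a TruSeq Stranded kit and read in pairs of 75 bases. The authors trimmed reads with Trimmomatic 0.36, aligned them to the Stettler genome with HISAT2 2.1.0 and estimated expression of annotated transcripts with StringTie 1.3.4d. By the study's text, alignment and estimation used default settings, apart from output suited to transcript assemblers and a limit to reference transcripts. How these settings divide reads with several matches is not described there and was not examined. The authors deposited FPKM and TPM values per gene, with coordinates, in 1 table per library. Read counts were not used here, and no gene was filtered out.

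Genes at 0 TPM in each library were selected, ordered by start on each chromosome and described by number, span, strand and neighbours. The members, lists and comparisons were chosen with earlier results of these data known. Shares carry Wilson 95% intervals, and genes, which are not replicates, were not tested. Branch means were compared by exact permutation, with Benjamini-Hochberg adjustment over 4 tests. Depth was recovered in each library from FPKM multiplied by span in kilobases. The tallest peak of these values below 1 was taken as 1 fragment, and it was at least 14.6 times the level around it. This assumes that the genes in the peak have a transcript as long as their span. The steps were tested on simulated data. Replicate numbers were not treated as pairing the libraries. Deviations of same-numbered libraries had a median correlation of 0.0229, over 0.1 in 121 of 315 pairs. For libraries of different numbers the median was -0.0117, over 0.1 in 200 of 630 pairs.

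Named genes were the ends of the 3 longest runs, the silent genes of the 2 largest spans and those of the smallest span, where 6 tied, the silent genes whose weaker neighbour was most strongly expressed, the extremes of the genes above 0 in 1 library, and genes silent throughout 1 tree only. Other genes were named after their values were seen. None of the 34700 identifiers matched the RefSeq table (0 matches), so no names or sequences are given. Alternatives covered the threshold, the libraries and branches, the ordering of genes and the replicate block. Python 3.11.15, numpy 2.4.6, pandas 2.3.3, scipy 1.17.1 and matplotlib 3.10.9 were used.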

Additional observations from a re-analysis of the deposited data

Results flagged for a closer look

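Of 9 groups of 5 branches examined, 1 held a branch set apart from the others. Branch 4.2 had 4672 genes at 0 in all 3 of its libraries, while the other branches of tree 4 had 4257 to 4372. Such a gap arises by chance in about 1 in 20 groups. The mean depth of branch 4.2 was 27530000 fragments, within the 26710000 to 32870000 of the tree. Its part in the gap was not tested.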

How the results depend on the processing

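Of 183 alternative values over 21 results, 166 had the same sign and the same call or, without a test, stayed within 1.5 times a count or the 95% interval of a share or median, and the other 17 follow. With silence set at under 0.1 TPM in every library there were 4192 genes, with 18.6% silent on chromosome 19 and 8.29% on chromosome 14, which were still the highest and lowest chromosomes. The median span was then 1700 bases, with 189 runs of 3 or more, 28 genes in the longest run, 24.1% of silent genes followed by a silent gene, and a median of 3.95 TPM in the genes beside them. A set of 4192 of the 34700 genes raises the share of silent next genes by itself. The 24.1% is therefore no stronger nearness than the 18.0% at a TPM of 0. The 3.95 TPM covers only genes that reached 0.1 TPM and has no matching value for genes without such a neighbour. With the 24 libraries of the branches the study analysed, chromosome 14 held 5.38%. The longest run held 6 genes both without the 3 longest runs and without chromosomes 4 and 19, where 15.5% were followed by a silent gene; these settings were chosen after seeing the data. Against genes above 0 with a highest TPM under 1 the ratio of median spans was 1.42. Counting genes under 1 TPM, tree 4 differed by -387.5 (exact permutation p = 0.0626), and on residuals from depth, also added later, by 15.1 genes (exact permutation p = 0.894). Those residuals cannot separate tree 4 from its greater depth. With the replicate number as a block the differences were -553.2 for tree 4 and 83.2 for tree 14, the same by construction. Leaving out 1 library or replicate number gave 2169 to 2449 silent genes, and leaving out 1 branch or replicate number gave -654.9 to -465.5 for tree 4 (exact permutation p from 0.000999 to 0.0133) and -9.47 to 141.6 for tree 14. The difference of tree 14 was not stable in direction or size, at -11.8 without branches 13.4 and 14.1 and 363.1 for genes under 1 TPM, though no alternative passed the threshold (exact permutation p at least 0.0635). The count of silent genes was still falling as the libraries of tree 4 were added, where depth and tree cannot be told apart.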
